A study of Homo sapiens with 6 samples.

Results

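The genes described here are 55 genes of DNA replication, taken by symbol from the 65746 gene symbols of a bulk RNA sequencing experiment in SU-DHL-8 cells. SU-DHL-8 is an established line grown from a human diffuse large B-cell lymphoma, and the labels give its genotype as wild type. Cells received either DMSO, the solvent, or erianin, a bibenzyl compound from Dendrobium orchids described as a tubulin ligand, at 100 nM. Both groups were taken at 24 h, with 3 libraries each, numbered as replicate experiments. Whether each library had a culture of its own is not stated, and p-values therefore reflect only how these libraries vary, some of which may be technical. The members were taken by gene name from a list of replication genes, drawn up with earlier results of these data known. All 55 were counted in every library (652 to 69306 reads) and all 55 passed the filter on low counts.

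DNA replication is prepared and carried out in ordered steps. In G1 the origin recognition complex (ORC), CDC6 and CDT1 load the MCM2 to MCM7 ring onto DNA, which is called licensing, and geminin (GMNN) blocks CDT1 once S phase has begun. The kinase CDC7 with its activator DBF4, together with CDC45 and the GINS complex, then turns the loaded ring into a working helicase, and polymerases alpha, delta and epsilon copy the strands behind it. Many of these genes are known E2F targets, and their transcripts are usually highest around the G1/S transition. In bulk RNA, fewer cells in S phase and less of a transcript per cell cannot be told apart.

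Total counts ran from 30956443 to 35588728. DMSO replicate 1 stood apart, with a biological coefficient of variation of 0.292 and 0.295 against the other DMSO libraries, which differed from each other by 0.0380. Erianin libraries differed from each other by 0.0336 to 0.0815. Unless stated otherwise, a level is in CPM, the read count relative to the library's size as corrected by TMM. Tests are edgeR's quasi-likelihood test with Benjamini-Hochberg adjustment over 11550 genes, and a gene is called at an adjusted p under 0.05. Of 7 B-cell markers, none was at 0, and their summed level, in CPM of total counts without TMM, was 2671 to 3568 CPM with DMSO and 2419 to 2634 CPM with erianin. The T-cell (5 genes), fibroblast (4) and epithelial (3) markers summed to at most 3.68, 0.227 and 0.146 on the same scale in any library, with CD3G, CD2, COL3A1, DCN and EPCAM at 0. The 4 monocyte markers summed to 4.23 to 6.90 CPM with DMSO and 9.83 to 10.8 CPM with erianin. The part of these marker differences in the results below was not tested.

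Replication genes were lower with erianin. Of the 55, 30 fell, 0 rose and 25 were not called, where 12.3% of all genes tested were called lower and 11.8% higher. No member was higher at an unadjusted p under 0.05 (0 of 55 by edgeR), and DESeq2 called 0 higher. The median log2 fold change (erianin minus DMSO) was -0.46 over the members and -0.003 over all genes tested. Without DMSO replicate 1, 39 fell, 2 rose and 14 were not called, where 27.4% of all genes were called lower and 27.8% higher. The median over the members was then -0.44. All 30 falls were called in the same direction without that library. The count of falls was 16 without erianin replicate 1, 16 without erianin replicate 2 and 19 without erianin replicate 3, where 2.98%, 2.89% and 4.97% of all genes were called lower. With upper-quartile scaling 26 fell (9.46% of all genes lower and 15.3% higher), and with total counts alone 24 fell (7.95% lower and 15.9% higher). In 37 members every erianin library lay below every DMSO library, in 1 member (GINS4) every erianin library lay above, and in 17 the groups overlapped. Among all genes tested, 23.1% were separated in this way downwards and 23.6% upwards. The 55 genes together took 1.63% to 1.76% of all counts in the DMSO libraries and 1.31% to 1.325% in the erianin libraries.

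The falls were modest in size. Of the 30, 4 were at least 2-fold (CDT1, MCM5, CDC45 and TK1), a size of fall called in 1.77% of all genes tested. Falls of at least 1.5-fold were called in 22 members, beside 899 of all 11550 genes tested. A test against a 1.5-fold change (edgeR's glmTreat) called 6 lower, where it called 0.944% of all genes lower. The 6 were CDT1, MCM5, CDC45, GINS3, POLA2 and RRM2. By step, 8 of 14 licensing genes fell, 4 of 9 genes of helicase activation, 6 of 10 polymerase subunits, 4 of 6 genes of the clamp and its loader and 2 of 5 genes of single-strand binding and Okazaki fragment joining. Of 5 genes of nucleotide supply 4 fell, of 4 genes of chromatin assembly 2 fell, and of 2 fork protection genes 0 fell. Median log2 fold changes ran from -0.72 for polymerase subunits to -0.12 for single-strand binding and Okazaki joining. Without DMSO replicate 1 the falls numbered 11 of 14 in licensing, 4 of 9 in helicase activation, 8 of 10 in polymerases and 6 of 6 in the clamp and its loader. They numbered 2 of 5 in single-strand binding and Okazaki joining, 5 of 5 in nucleotide supply, 3 of 4 in chromatin assembly and 0 of 2 in fork protection. In that setting 27.4% of all genes were called lower, beside 12.3% with all libraries. Differences between steps, and between genes of a step, were not tested.

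**Figure D1:**
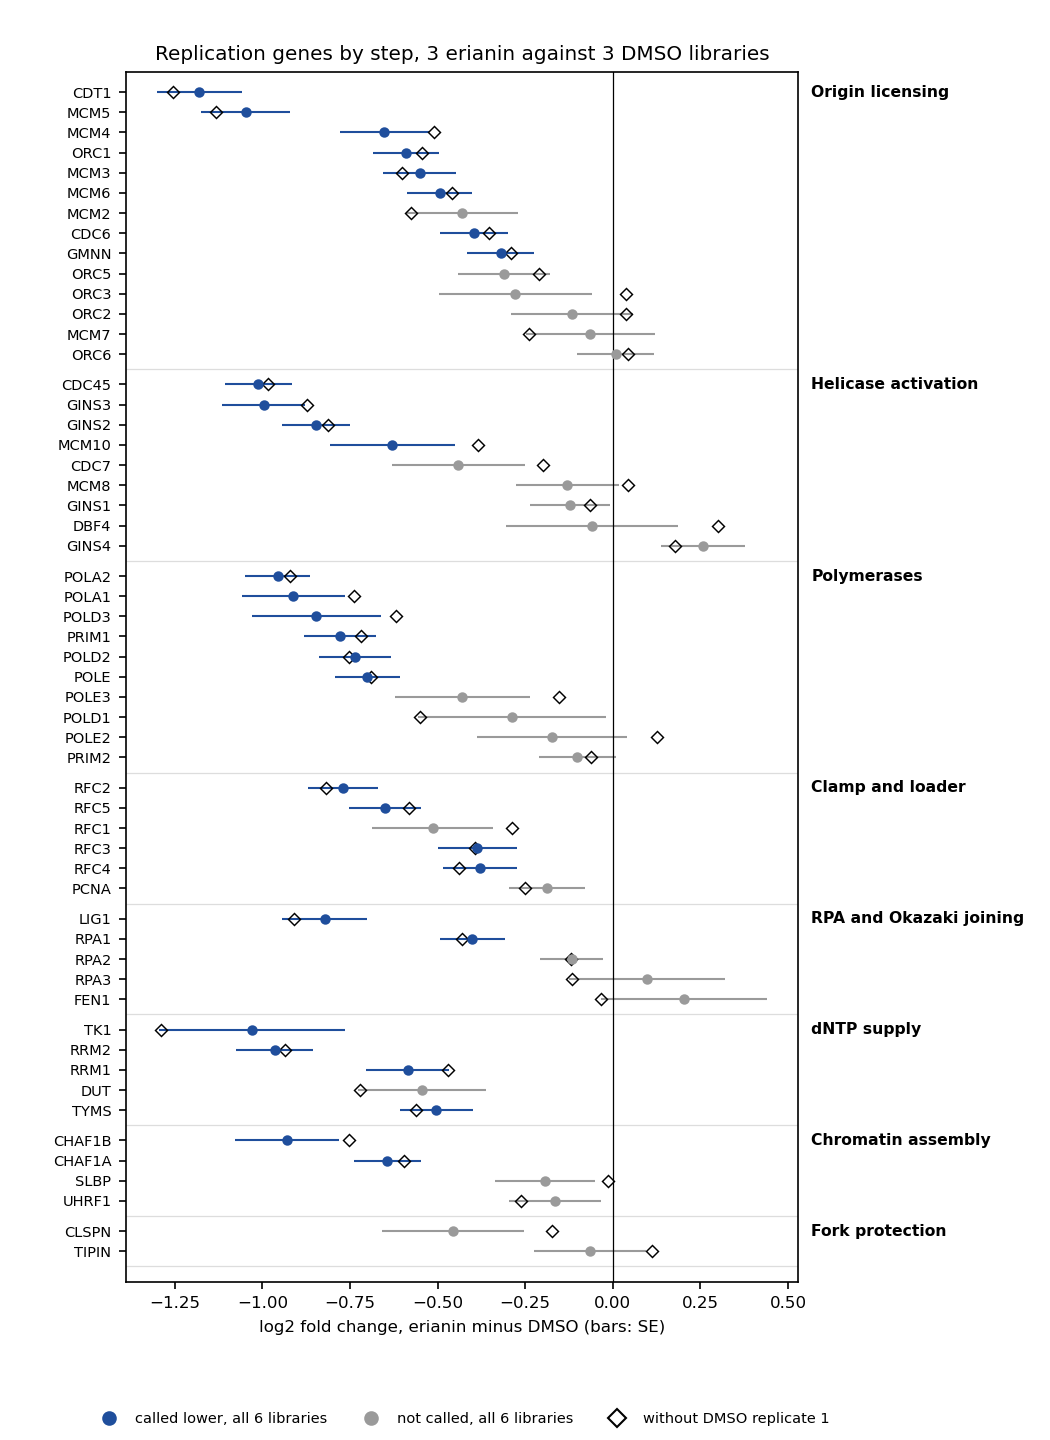
Log2 fold change (erianin minus DMSO) of each of the 55 genes, grouped by replication step, with the standard error as a bar. Filled points use all 6 libraries (blue, called lower; grey, not called) and open diamonds leave out DMSO replicate 1; of the filled points 51 lie below 0.

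The promoters of the members were examined because 51 of the 55 log2 fold changes were below 0. RefSeq (GRCh38.p14) gave start sites for 49 of the 55 symbols, in 68 windows, and the 250 bases before each start were searched on both strands. The E2F-type motif was searched in its forms TTTGGCGC, TTTCCCGC, TTTGCCGC and TTTCGCGC. It was found in 19 of 68 member windows (27.9%) and in 2.79% of all 35116 windows. By gene, it was found for 18 of 49 members, of which 11 of 27 had been called lower and 7 of 22 had not been called. Both groups of members thus held it, and a match is a description of letters, not a binding site. The CCAAT box was found in 51.5% of member windows and 32% of all windows. The GC box GGGCGG was found in 73.5% and 42.6%. TTTGAA, a form of the CHR element of genes expressed in G2 and mitosis, was found in 4.41% and 13.3%. For each motif, all windows means those of 27305 symbols, which include genes not tested here. Since many members are known E2F targets, a larger E2F share than in all windows can follow from the list itself. It is no result about erianin.

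The 30 bases around the match are shown for 9 members, to let the sites be compared across steps. Each has a single RefSeq start, and all its matches within 120 bases of that start fit in 30 bases. Capitals mark the match, which reads as one of the 4 forms above or as its reverse complement, and each stretch runs 5′ to 3′ on the gene's own strand. In MCM6 a pair of matches overlap. ORC3 is the single gene of these 9 that was not called. CDC7, also not called, has matches starting at -68 and -34 relative to a start, which span more than 30 bases, and is not shown.
CDT1: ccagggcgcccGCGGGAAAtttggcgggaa
MCM6: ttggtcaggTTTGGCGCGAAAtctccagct
ORC3: ctgcagccgcgagggcgcGCGGGAAAtccc
GINS2: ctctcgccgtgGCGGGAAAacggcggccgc
POLA2: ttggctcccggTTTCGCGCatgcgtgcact
POLE: ctgggtgggagcGCGCCAAAtttctcccct
RFC3: atttggagctcGCGGGAAAacttgtctctg
LIG1: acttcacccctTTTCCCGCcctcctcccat
TYMS: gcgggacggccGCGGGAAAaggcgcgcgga
Counted back from the start, the match began 35 bases before it in CDT1, 31 in GINS2, 39 in TYMS, 53 in POLA2 and 55 in RFC3. It began 90 bases before it in MCM6, 114 in LIG1, 18 in POLE and 12 in ORC3. The stretches lie at chr16:88803743-88803772 (CDT1, plus strand), chr2:135876513-135876542 (MCM6, minus), chr6:87590105-87590134 (ORC3, plus), chr16:85688967-85688996 (GINS2, minus) and chr11:65261898-65261927 (POLA2, plus). The others lie at chr12:132687343-132687372 (POLE, minus), chr13:33818083-33818112 (RFC3, plus), chr19:48170440-48170469 (LIG1, minus) and chr18:657603-657632 (TYMS, plus).

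Among licensing factors, CDT1 had the lowest log2 fold change. CDT1, which brings the MCM ring to the origin (ENSG00000167513, chromosome 16, 88803213 to 88809258, plus strand in GENCODE 29), had 494, 593 and 606 CPM in DMSO replicates 1, 2 and 3 and 240.4, 235 and 273 CPM in erianin replicates 1, 2 and 3. Every erianin library lay far below every DMSO library, and the log2 fold change was -1.18 ± 0.12 (SE; adjusted p = 0.0019). Its inhibitor GMNN had 83.97, 82.4 and 79.8 CPM with DMSO and 66.2, 68.7 and 62.3 CPM with erianin. GMNN fell as well (-0.32 ± 0.10, adjusted p = 0.048), and its call ended without any 1 library apart from DMSO replicate 1 (adjusted p up to 0.19). The ratio of CDT1 to GMNN transcripts per length (TPM) was 7.81, 9.56 and 10.1 with DMSO and 4.82, 4.53 and 5.81 with erianin, so that the ratios did not overlap.

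ORC1, the ORC subunit known to cycle with the cell cycle, had 201, 194 and 181 CPM with DMSO and 131, 124 and 128 CPM with erianin (-0.59 ± 0.09, adjusted p = 0.0064). The other ORC subunits measured were not called with all libraries. Their log2 fold changes were -0.12 for ORC2, -0.28 for ORC3, -0.31 for ORC5 and 0.01 for ORC6. ORC5 fell without DMSO replicate 1 (-0.21 ± 0.09, adjusted p = 0.046). By deposited TPM, ORC1 made up 59.0%, 65.0% and 63.0% of the summed level of these 5 subunits with DMSO and 54.5%, 53.1% and 58.5% with erianin. CDC6, the loader that binds ORC, fell from 155 ± 5.68 to 118 ± 6.395 CPM (SD, n = 3; adjusted p = 0.025). The call of ORC1 ended without erianin replicate 1 or 2 (adjusted p up to 0.057), and that of CDC6 without any 1 library apart from DMSO replicate 1 (up to 0.12).

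Of the MCM2 to MCM7 ring, 4 of 6 subunits fell with all libraries and 6 of 6 without DMSO replicate 1. Of all genes, 12.3% and 27.4% were called lower in these settings. MCM5 (ENSG00000100297, chromosome 22, 35400063 to 35425430, plus strand) had 1029.7, 1293 and 1267 CPM with DMSO and 570.3, 541 and 626 CPM with erianin. The groups were far apart, with a log2 fold change of -1.05 ± 0.13 (adjusted p = 0.0029). MCM3 (-0.55), MCM4 (-0.65) and MCM6 (-0.49) fell as well. MCM2 had 685, 991 and 993 CPM with DMSO and 642, 633 and 706 CPM with erianin and was not called (adjusted p = 0.091). MCM7 had 1289.6, 2029 and 2039 CPM with DMSO and 1684, 1652 and 1790.2 CPM with erianin and was not called (-0.06 ± 0.18, adjusted p = 0.83). In both genes DMSO replicate 1 was the low DMSO library. Without it MCM2 fell (-0.57 ± 0.06, adjusted p = 1.8e-08) and so did MCM7 (-0.24 ± 0.06, adjusted p = 0.0016). The calls of MCM3 and MCM6 ended without erianin replicate 1 or 2 (adjusted p up to 0.076 and 0.073), and that of MCM4 without any 1 erianin library (up to 0.071). MCM2 and MCM7 share 22.7% and 8.94% of their exonic bases with genes on the opposite strand in GENCODE 29, and no source used here says whether counting used strand.

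The make-up of the ring transcripts shifted mainly in MCM5 and MCM7. MCM5 made up 16.2%, 17.4% and 17.3% of the summed MCM2 to MCM7 TPM with DMSO and 11.6%, 11.1% and 12.3% with erianin. MCM7 made up 13.2%, 17.8% and 18.2% with DMSO and 22.4%, 22.2% and 23.1% with erianin. Neither pair of groups overlapped. MCM3 averaged 24.0% with DMSO and 23.3% with erianin, also without overlap, and the shares of MCM2, MCM4 and MCM6 overlapped between the groups. Such shares do not depend on how a library is scaled, and they show unequal change, not that any subunit was constant. The ring holds 1 copy of each subunit as protein, and proteins were not measured here.

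**Figure D2:**
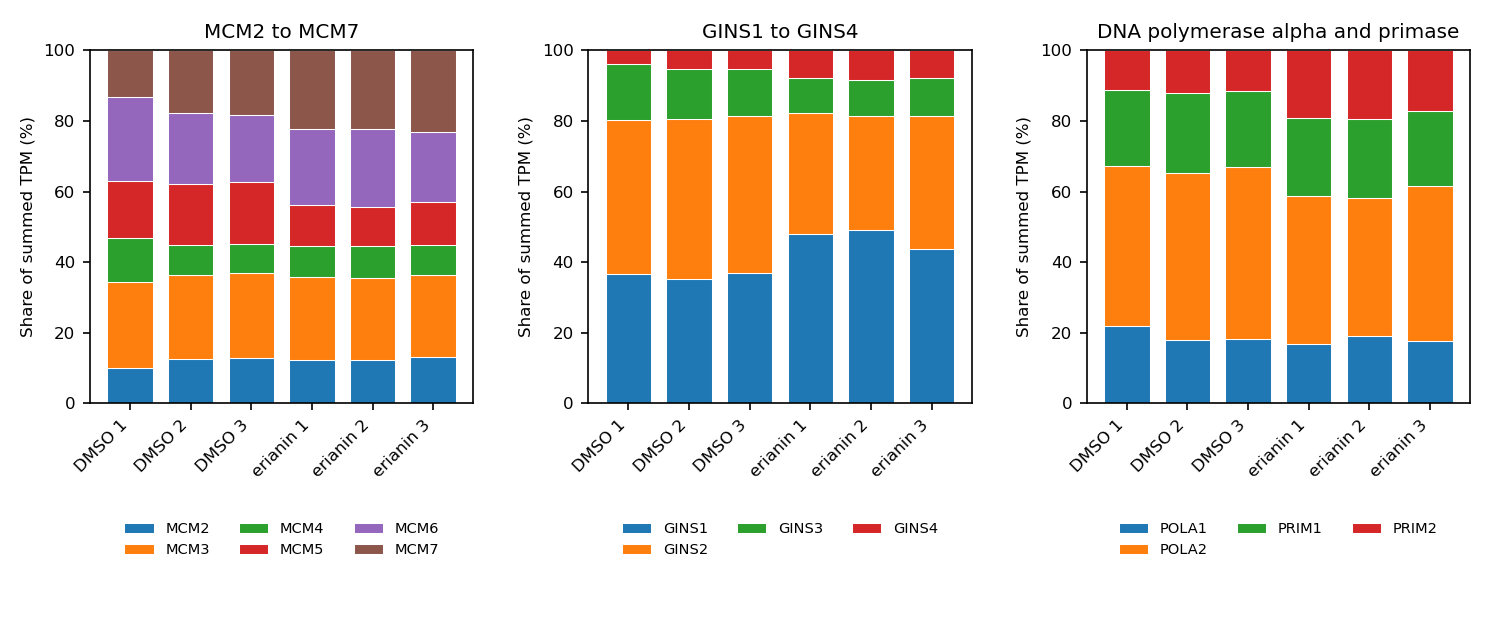
Share of each gene in the summed deposited TPM of its complex, in percent, for each of the 6 libraries, shown for the MCM ring, the GINS complex and polymerase alpha with primase. The MCM5 part shrinks from 16.2% to 17.4% with DMSO to 11.1% to 12.3% with erianin, and the PRIM2 part grows from 11.1% to 11.95% to between 17.0% and 19.3%.

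Of the 9 genes grouped under helicase activation, CDC45, MCM10, GINS2 and GINS3 fell and the other 5 were not called. CDC45 (ENSG00000093009, chromosome 22, 19479459 to 19520612, plus strand) had 271, 273 and 253 CPM with DMSO and 133, 124 and 138 CPM with erianin (-1.01 ± 0.10, adjusted p = 0.0015). DMSO replicate 1 lay between the other DMSO libraries here. MCM10, which helps to start the helicase, had 256, 174 and 163 CPM with DMSO and 125, 133 and 125 CPM with erianin. It fell by 0.63 ± 0.18 on the log2 scale with all libraries (adjusted p = 0.040) and by 0.39 ± 0.06 without DMSO replicate 1. Its call ended without DMSO replicate 2 or any 1 erianin library (adjusted p up to 0.15), with upper-quartile scaling (adjusted p = 0.053) and with total counts alone (adjusted p = 0.083).

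The GINS complex has 4 subunits, and GINS2 and GINS3 were the ones that fell. GINS2 had 125, 119.8 and 121 CPM with DMSO and 69.6, 63.6 and 70.3 CPM with erianin (-0.85 ± 0.10, adjusted p = 0.0026). GINS3 had 143, 116 and 115 CPM with DMSO and 62.9, 61.8 and 62.3 CPM with erianin (-0.996 ± 0.12, adjusted p = 0.0028). In both genes the erianin libraries lay close together and well below DMSO. GINS1 had 132, 116 and 125 CPM with DMSO and 121, 121 and 101 CPM with erianin and was not called (adjusted p = 0.48). GINS4 had 40.3, 49.3 and 49.6 CPM with DMSO and 56.6, 58.02 and 51.8 CPM with erianin (0.26 ± 0.12, adjusted p = 0.16). Every erianin library lay above every DMSO library for GINS4, and leaving out DMSO replicate 1 it rose (0.18 ± 0.08, adjusted p = 0.048). By TPM the GINS4 share of the complex was 3.97%, 5.30% and 5.17% with DMSO and 7.91%, 8.37% and 7.90% with erianin, while the GINS2 share was 43.4% to 45.3% and 32.3% to 37.7%. GINS4 shares 21.2% of its exonic bases with 1 antisense transcript and GINS3 10.9%, and reads of both strands cannot be told apart in them if counting did not use strand.

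CDC7 and DBF4 form the kinase that acts on the loaded ring, and MCM8 is an MCM relative known from recombination. CDC7 had 59.1, 36.4 and 41.4 CPM with DMSO and 35.5, 35.05 and 30.3 CPM with erianin (-0.44 ± 0.19, adjusted p = 0.13). With DMSO replicate 1 left out its adjusted p was 0.055. DBF4 had 103, 55.9 and 57.2 CPM with DMSO and 75.2, 71.8 and 60.1 CPM with erianin (-0.06 ± 0.25, adjusted p = 0.88). DMSO replicate 1 lay above all other libraries, and without it DBF4 rose (0.30 ± 0.08, adjusted p = 0.0034), so its direction rests on that library. MCM8 had 164 ± 29.8 CPM in the DMSO libraries and 150.3 ± 11.5 CPM in the erianin libraries and was called neither with (adjusted p = 0.56) nor without DMSO replicate 1.

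**Figure D3:**
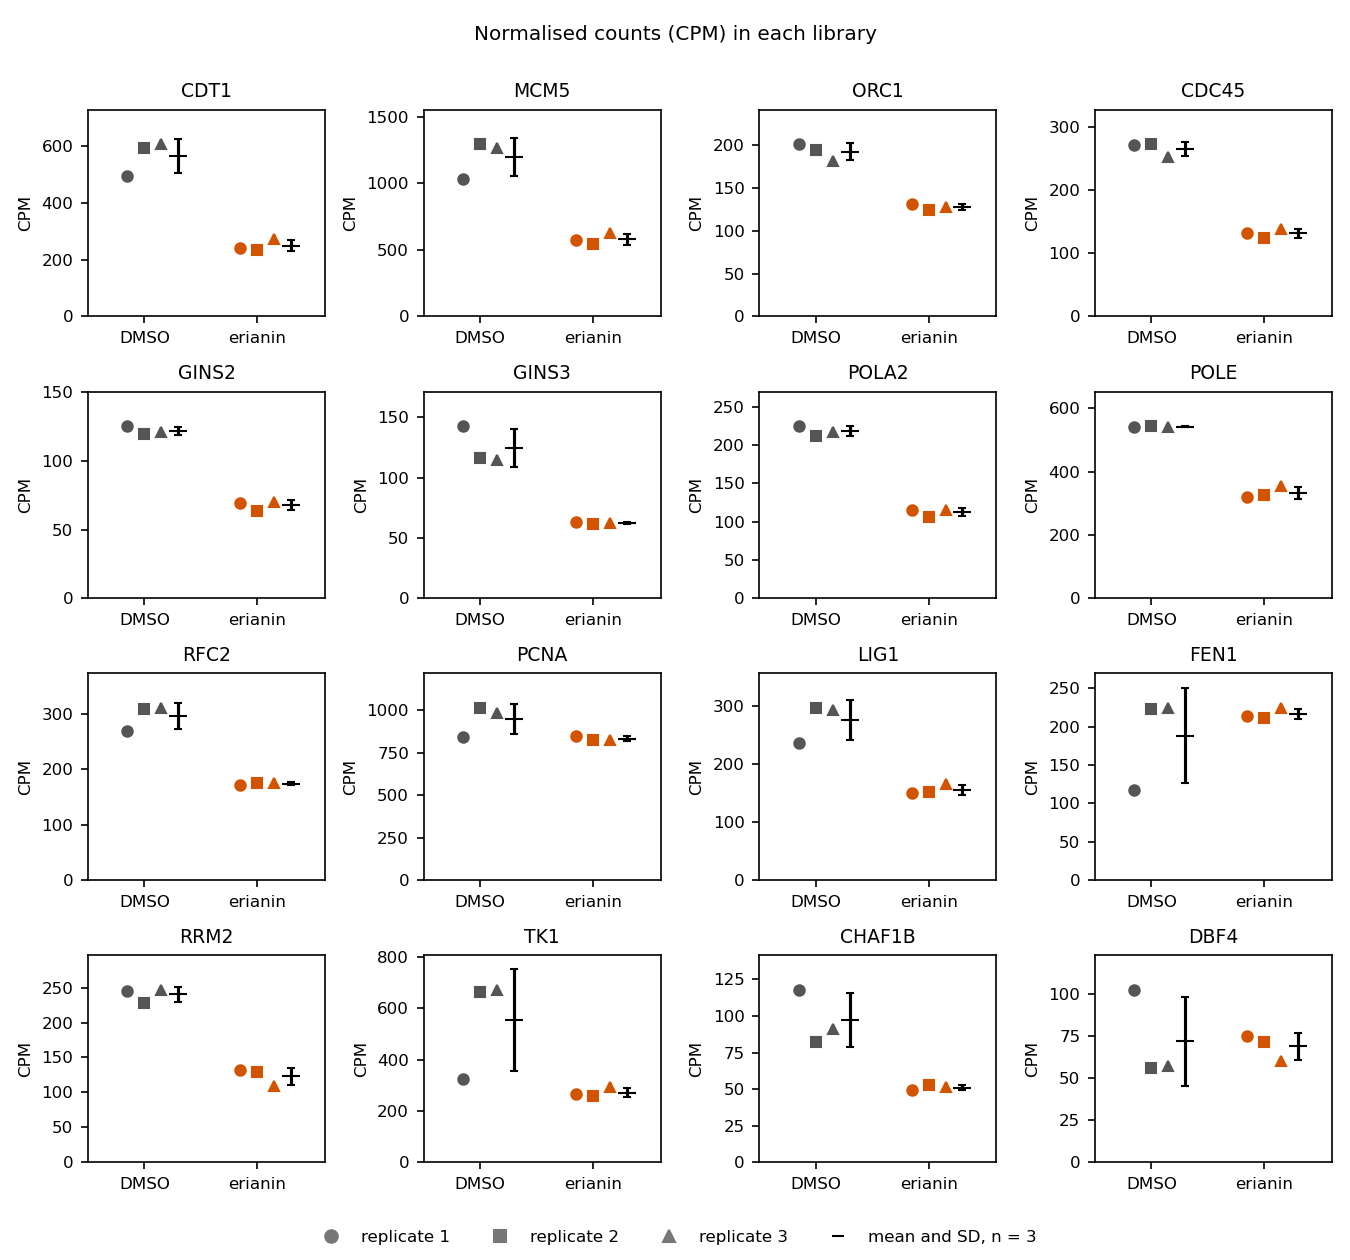
CPM of 16 of the genes in each library (grey, DMSO; orange, erianin; the marker shape gives the replicate number), with the mean and SD of 3 libraries beside the points. The groups are apart for CDT1, MCM5, ORC1, CDC45, GINS2, GINS3, POLA2, POLE, RFC2, LIG1, RRM2, TK1 and CHAF1B and overlap for PCNA, FEN1 and DBF4; DMSO replicate 1 sits away from the other DMSO points for FEN1, TK1 and DBF4.

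Polymerase subunits fell in all 3 replicative enzymes. POLA2, the second subunit of polymerase alpha (ENSG00000014138, chromosome 11, 65261762 to 65305589, plus strand), had 225, 211 and 218 CPM with DMSO and 115, 107 and 115 CPM with erianin (-0.96 ± 0.09, adjusted p = 0.0016). POLA1, the catalytic subunit, fell from 136 ± 24.6 to 72.1 ± 4.27 CPM (adjusted p = 0.0064). PRIM1, the catalytic primase subunit, had 61.3, 57.6 and 53.9 CPM with DMSO and 34.4, 34.5 and 31.9 CPM with erianin (-0.78 ± 0.10, adjusted p = 0.0035), with all erianin libraries below DMSO. PRIM2, its partner, had 33.6, 32.3 and 31.4 CPM with DMSO and 31.8, 31.7 and 27.1 CPM with erianin (-0.10 ± 0.11, adjusted p = 0.55). The PRIM2 share of the summed TPM of these 4 genes was 11.1%, 11.95% and 11.6% with DMSO and 19.1%, 19.3% and 17.0% with erianin. POLA2 and PRIM1 share 35.1% and 14.9% of their exonic bases with another gene annotated on the same strand in GENCODE 29, and how such reads were assigned is not known.

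Polymerase epsilon, which copies the leading strand, fell in its catalytic subunit. POLE had 541, 545 and 541 CPM with DMSO and 319, 326 and 355 CPM with erianin (-0.70 ± 0.09, adjusted p = 0.0038). The 3 DMSO libraries had an SD of 2.101 CPM, DMSO replicate 1 included. The accessory subunit POLE2 (25.7 ± 8.13 CPM in the DMSO libraries and 22.8 ± 1.53 CPM in the erianin libraries) was not called, nor was POLE3 (265 ± 76.97 and 197 ± 5.11 CPM), which fell without DMSO replicate 1 (-0.15 ± 0.06, adjusted p = 0.032). For polymerase delta, the lagging-strand enzyme, POLD2 had 848, 903 and 906 CPM with DMSO and 513, 503 and 579 CPM with erianin (-0.74 ± 0.10, adjusted p = 0.0043). POLD2 was the polymerase subunit highest in TPM with DMSO. POLD3 fell from 107 ± 25.9 to 59.5 ± 6.68 CPM (adjusted p = 0.017), a call that ended without any 1 erianin library (adjusted p up to 0.080). The catalytic POLD1 had 182, 387 and 375 CPM with DMSO and 245, 247 and 281 CPM with erianin and was not called (adjusted p = 0.48). DMSO replicate 1 was the lowest of all libraries in POLD1, and without it POLD1 fell (-0.55 ± 0.06, adjusted p = 7.6e-08).

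The clamp PCNA was the member with the highest TPM in all 6 libraries. PCNA, the ring that tethers polymerases to DNA, had 844, 1013 and 982 CPM with DMSO and 849, 821 and 822 CPM with erianin and was not called (-0.19 ± 0.11, adjusted p = 0.24). Without DMSO replicate 1 it fell (-0.25 ± 0.06, adjusted p = 0.00069). CDT1 ranked second by TPM in all DMSO libraries and ranked 6, 6 and 5 in erianin replicates 1, 2 and 3.

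Replication factor C, with 5 subunits, loads that clamp. RFC2 had 270.0, 309 and 311 CPM with DMSO and 171, 176 and 176 CPM with erianin (-0.77 ± 0.10, adjusted p = 0.0034). RFC5 had 93.3, 86.3 and 80.7 CPM with DMSO and 56.3, 57.1 and 52.6 CPM with erianin (-0.65 ± 0.10, adjusted p = 0.0064). Both were separated between the groups. RFC4 had 87.2, 102 and 103 CPM with DMSO and 76.1, 75.7 and 73.1 CPM with erianin (-0.38 ± 0.11, adjusted p = 0.040), and RFC3 fell by 0.39 on the log2 scale (adjusted p = 0.045). The calls of RFC3 and RFC4 ended without any 1 library apart from DMSO replicate 1 (adjusted p up to 0.14 and 0.16). RFC1, the large subunit, had 149.7 ± 35.8 CPM in the DMSO libraries and 105 ± 6.63 CPM in the erianin libraries (adjusted p = 0.067), and leaving out DMSO replicate 1 it fell (-0.29 ± 0.07, adjusted p = 0.00068).

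Of the proteins that cover single strands and join Okazaki fragments, LIG1 and RPA1 fell. LIG1, the ligase that seals the fragments, had 235, 296 and 293 CPM with DMSO and 151, 151 and 165 CPM with erianin (-0.82 ± 0.12, adjusted p = 0.0052). FEN1, the nuclease that trims the same fragments, had 117, 223 and 224 CPM with DMSO and 214, 212 and 224 CPM with erianin and was not called (0.20 ± 0.24, adjusted p = 0.57). Apart from DMSO replicate 1, the FEN1 libraries lay within a narrow range, and without that library its log2 fold change was -0.03 ± 0.06 (adjusted p = 0.66). By TPM, FEN1 ranked 18, 10 and 10 among the 55 members in DMSO replicates 1, 2 and 3, and RPA1 ranked 14 in each of them. RPA1, the large subunit of the single-strand binding protein RPA, had 387, 428 and 416 CPM with DMSO and 308, 317 and 307 CPM with erianin (-0.40 ± 0.09, adjusted p = 0.021). Its call ended without any 1 library apart from DMSO replicate 1 (adjusted p up to 0.12). RPA2 had 112, 115 and 116 CPM with DMSO and 104, 106 and 105 CPM with erianin, which did not overlap and were not called (-0.12 ± 0.09, adjusted p = 0.38). RPA3 had 57.7 ± 17.1 CPM in the DMSO libraries and 61.7 ± 5.86 CPM in the erianin libraries (adjusted p = 0.79).

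Nucleotide supply genes were separated downwards between the groups in all 5 members, beside 23.1% of all genes tested. RRM2, the cell-cycle-regulated subunit of ribonucleotide reductase (ENSG00000171848, chromosome 2, 10120698 to 10131419, plus strand), had 246, 228 and 247 CPM with DMSO and 131, 129 and 109 CPM with erianin (-0.96 ± 0.11, adjusted p = 0.0026). Its partner RRM1 had 403, 329.9 and 331 CPM with DMSO and 248, 243 and 219 CPM with erianin (-0.59 ± 0.12, adjusted p = 0.014). The ratio of RRM1 to RRM2 by TPM was 1.71, 1.51 and 1.40 with DMSO and 1.97, 1.97 and 2.09 with erianin, without overlap. TK1, the salvage thymidine kinase and the member of this step with the highest DMSO mean TPM, had 323, 663 and 672 CPM with DMSO and 264, 257 and 291 CPM with erianin (-1.03 ± 0.26, adjusted p = 0.030). DMSO replicate 1 was at 0.484 times the mean of the other DMSO libraries for TK1, and without it the log2 fold change was -1.29 ± 0.06 (adjusted p = 1.0e-14). TYMS, thymidylate synthase, had 115, 135 and 134 CPM with DMSO and 90.9, 90.3 and 89.7 CPM with erianin (-0.50 ± 0.11, adjusted p = 0.015). TYMS shares 39.2% of its exonic bases with ENOSF1 on the opposite strand, and RRM2 shares 20.2% with another gene annotated on the same strand. DUT, the dUTPase that keeps uracil out of DNA, had 168, 267 and 268 CPM with DMSO and 159.7, 158 and 164 CPM with erianin (-0.54 ± 0.18, adjusted p = 0.068), and leaving out DMSO replicate 1 it fell (-0.72 ± 0.06, adjusted p = 1.7e-10). DUT shares 14.5% of its exonic bases with an antisense gene. The calls of TK1 and TYMS ended without any 1 library apart from DMSO replicate 1 (adjusted p up to 0.12 and 0.089), and that of RRM1 without any 1 erianin library (up to 0.075).

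Both large subunits of the chromatin assembly factor CAF-1, which places histones behind the fork, fell. CHAF1A had 358, 332 and 336 CPM with DMSO and 210.4, 214 and 233 CPM with erianin (-0.64 ± 0.10, adjusted p = 0.0052). CHAF1B had 118, 82.5 and 90.98 CPM with DMSO and 48.99, 52.7 and 51.3 CPM with erianin (-0.93 ± 0.15, adjusted p = 0.0064). SLBP, which binds the stem-loop of histone mRNA, had 335, 245 and 244 CPM with DMSO and 245, 243 and 233 CPM with erianin and was not called (adjusted p = 0.37). UHRF1, which reads hemimethylated DNA, had 916 ± 127 CPM in the DMSO libraries and 817 ± 57.99 CPM in the erianin libraries (adjusted p = 0.40), and it fell without DMSO replicate 1 (-0.26 ± 0.06, adjusted p = 0.0011). The histone mRNAs themselves could not be followed. All 65 replication-dependent histone symbols were listed at 0, and so were H3-3A and H3-3B, which cells use throughout, so a 0 was not read as absence.

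The 2 fork protection genes were not called. CLSPN, the mediator of checkpoint kinase activation at forks, had 78.4, 48.4 and 48.3 CPM with DMSO and 39.3, 45.6 and 42.6 CPM with erianin (-0.46 ± 0.20, adjusted p = 0.14). TIPIN, which travels with the fork as the partner of TIMELESS, had 35.7, 27.9 and 24.5 CPM with DMSO and 29.5, 29.3 and 25.3 CPM with erianin (adjusted p = 0.80). In both genes DMSO replicate 1 was the highest library, and neither was called without it (adjusted p = 0.066 and 0.31). TIPIN shares 21.0% of its exonic bases with a pseudogene on the same strand.

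**Figure D4:**
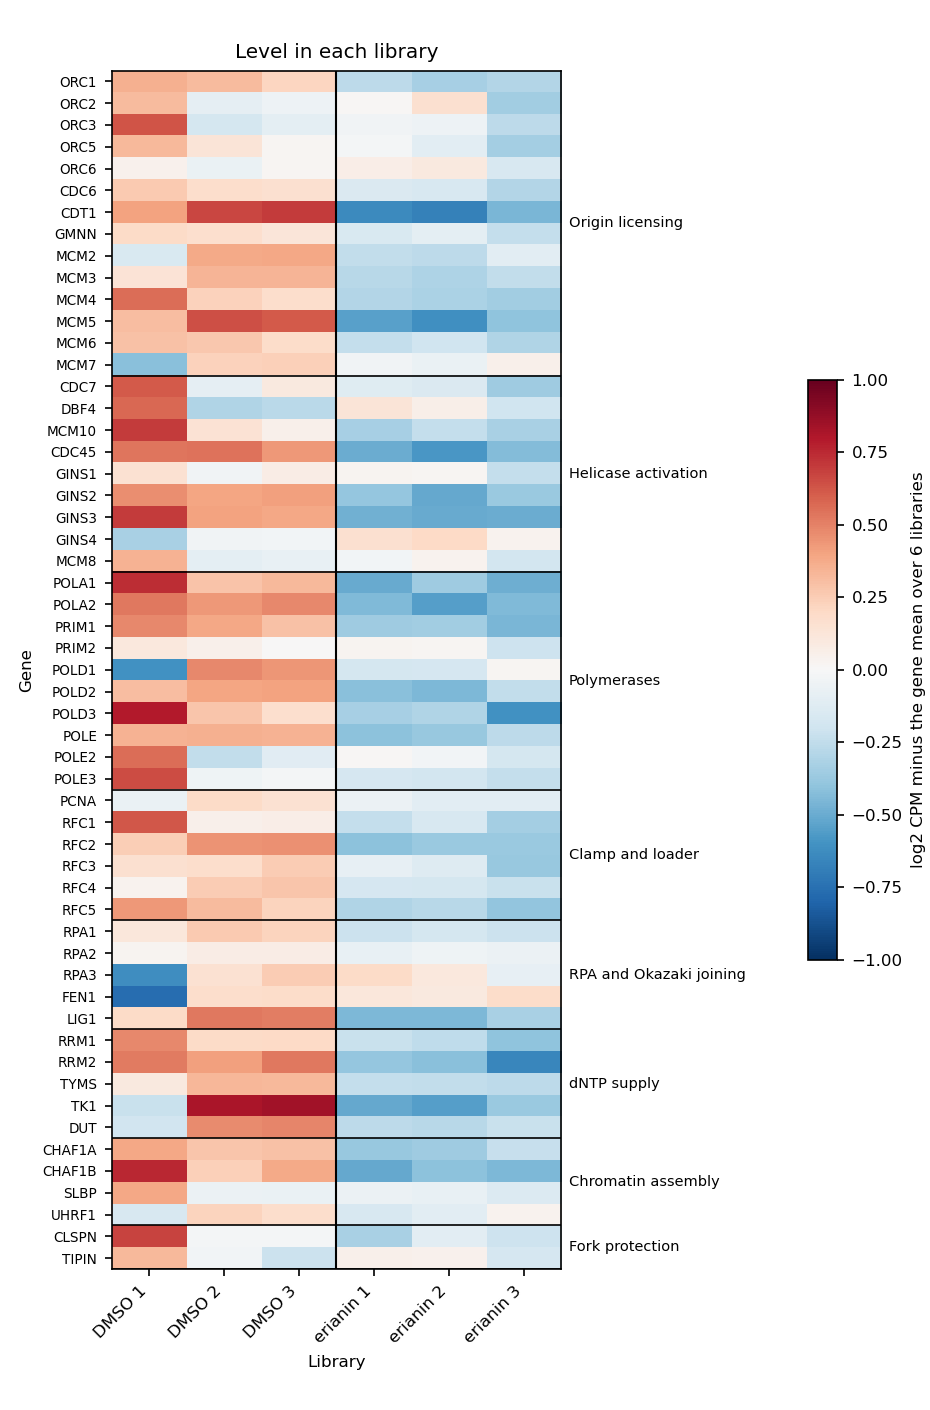
Level of each gene in each library, as log2 CPM minus the gene's mean over the 6 libraries (red above, blue below; the scale ends at 1 and -1), with genes ordered by step. DMSO replicates 2 and 3 look alike, while DMSO replicate 1 is below both in 21 genes, among them FEN1, POLD1 and MCM7, and above both in 31, among them POLD3 and DBF4.

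The departure of DMSO replicate 1 was set against the base composition of the members. It was below both other DMSO libraries in 21 members, above both in 31 and between them in 3. Among members with GC-rich transcripts, POLD1 was low in it (65.0% GC in its longest GENCODE 29 transcript, log2 difference from the other DMSO libraries -1.07), as was TK1 (62.8%, -1.05), while CDT1 was less so (64.9%, -0.28) and CHAF1A was not low (57.6%, 0.10). Among members with AT-rich transcripts, DBF4 (40.1%, 0.86) and ORC3 (39.4%, 0.77) were high in it, RFC3, with the lowest GC content of the 54 members that have one, was not (39.1%, -0.06), and DUT (44.2%, -0.67) and RPA3 (45.9%, -0.82) were low. These examples were chosen after their values were seen. Across 54 members Spearman's rho between GC content and this difference was -0.636, and across 11404 genes tested it was -0.518, given as a description since genes share each library. Between GC content and the log2 fold change of erianin, rho was -0.337 over the members and 0.0158 over all genes. Without DMSO replicate 1 these values were -0.512 and -0.187. With offsets that remove smooth trends in GC content and length in each library, 36 members were called lower and 0 higher, where 21.3% of all genes were called lower and 15.2% higher.

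**Figure D5:**
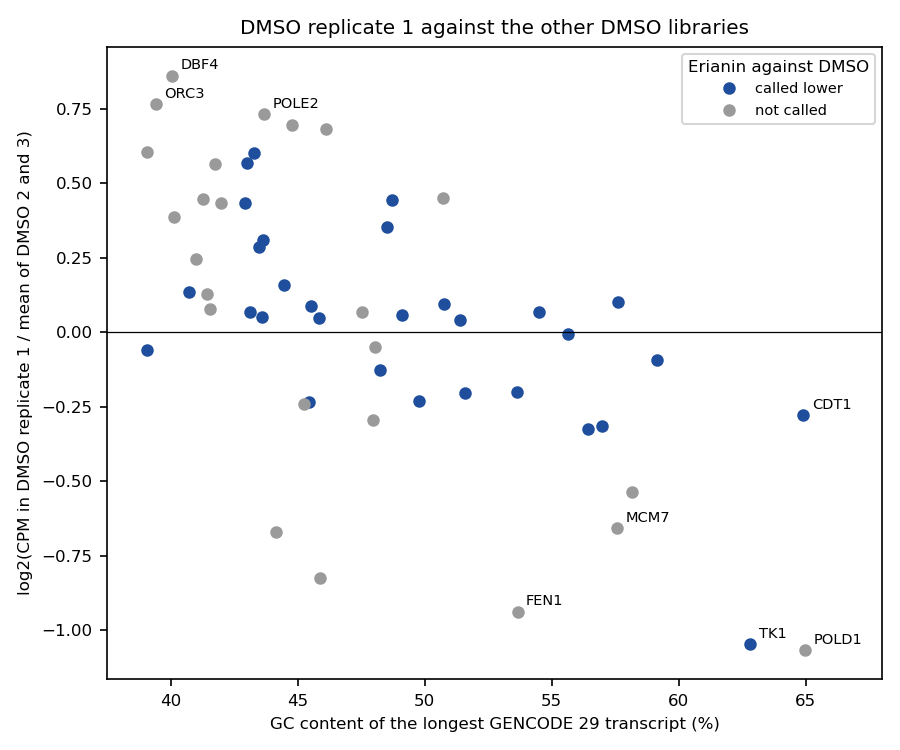
Log2 ratio of CPM in DMSO replicate 1 to the mean of DMSO replicates 2 and 3 for 54 members, against the GC content in percent of the longest annotated transcript. Blue points are genes called lower with erianin and grey points are not called; POLD1 (-1.07) and TK1 (-1.05) lie at the GC-rich end and DBF4 (0.86) at the AT-rich end, with wide scatter between, and RFC3, with the lowest GC content, lies near 0 (-0.06).

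Other genes of replication, 55 listed by name and 54 with enough counts to test, were described as well. Of these, 19 fell, 0 rose and 35 were not called, beside 12.3% lower among all genes, with a median log2 fold change of -0.27. At an unadjusted p under 0.05, 1 was higher by edgeR, and DESeq2 called 0 higher. TICRR, which brings CDC45 to the ring, had 179, 134 and 129 CPM with DMSO and 68.3, 65.8 and 73.9 CPM with erianin (-1.08 ± 0.15, adjusted p = 0.0041). DNA2, a nuclease and helicase of Okazaki fragment processing, fell by 0.82 ± 0.12 on the log2 scale (adjusted p = 0.0050). ATAD5, which unloads PCNA, fell by 1.01 ± 0.17 (adjusted p = 0.0073), and TIMELESS, the partner of TIPIN, fell by 0.60 ± 0.10 (adjusted p = 0.0064; up to 0.057 without erianin replicate 1 or 2). The count of falls was 3 without erianin replicate 1, 3 without erianin replicate 2 and 6 without erianin replicate 3, beside the same 2.98%, 2.89% and 4.97% of all genes. Without DMSO replicate 1, 32 fell and 2 rose, beside 27.4% and 27.8% of all genes. The genes that rose there were ORC4, the sixth ORC subunit (0.76 ± 0.12, adjusted p = 7.0e-06), and RAD17, a checkpoint clamp loader (0.28 ± 0.09, adjusted p = 0.0075), both named after their values were seen. With all libraries ORC4 averaged 15.2 CPM for DMSO and 21.9 CPM for erianin (adjusted p = 0.12).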

How the data were processed

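RNA from 6 libraries was measured. Per the file headers, the authors deposited a table of raw counts and a table of TPM, both by gene. Per the submitters' processing notes, StringTie 2.2.1, featureCounts 2.0.1, STAR 2.7.10 and fastp 0.23.2 were used, with GRCh38 (hg38). Annotation release and strand setting: not given in the sources used here. TPM columns summed to 39.2% of the full TPM scale in DMSO replicate 1 and 63.6% to 66.7% in the others, so TPM was used for shares and ranks within a library. Repeated symbols (61 entries) were left out. Counts were tested with edgeR 4.0.16 (R 4.3.3; TMM, filterByExpr, glmQLFTest, treatment as the single term), fitted on all genes. Tested on simulated data (11550 genes, 200 changed), edgeR called 5% of the genes changed 1.5-fold and 52% of those changed 2-fold. Of its 61 calls there, 6.56% were false. The real fit called 2791 of 11550 genes, so its adjustment was less strict, and these rates cannot be carried over to it. A gene not called may still have changed. The SE was taken as the size of the log2 fold change divided by the root of the F statistic. Locations came from GENCODE 29 (GRCh38), promoters from RefSeq (GRCh38.p14). Alternatives used DESeq2 1.42.0, limma 3.58.1 and mgcv 1.9.3. At these depths 3 counts equal 0.0843 to 0.0969 CPM. Members and lists were chosen with earlier results of these data known. Per-library values are given for the 3 smallest p and the highest TPM of each step, and for further members chosen after their values were seen; members whose call changed without 1 library, and the 4 other replication genes of smallest p, are named.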

Additional observations from a re-analysis of the deposited data

How the results depend on the processing

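No member called lower changed direction in any of the 20 other settings. Leaving aside the TPM scale and the test against 1.5-fold, 16 of the 30 falls kept their call under all 17 remaining settings, and the other 14 lost it without at least 1 erianin library. CDC6, GMNN, MCM10, RFC3, RFC4 and RPA1 also lost it in at least 1 of these settings that kept all libraries. Calls over all genes dropped too, from 2791 to 777, 745 and 1198 without erianin replicates 1, 2 and 3. With 1 library left out, log2 fold changes ran from -0.63 to -0.55 in ORC1 and from -0.60 to -0.52 in MCM3. They ran from -0.43 to -0.30 in RFC3 and from -0.755 to -0.39 in MCM10. The count of falls was 4 on the log2(TPM + 1) scale, 3 on the log2(TPM + 0.1) scale and 6 with glmTreat (2.27%, 2.12% and 0.944% of all genes called lower), and ran from 16 to 39 with 1 library left out. On these TPM scales the median of all genes moved to 0.20 and 0.28, and with total counts alone to 0.11, while the median of the members was -0.14, -0.15 and -0.35. With limma-voom and sample quality weights 41 members fell and 2 rose, where 32.1% of all genes were called lower and 32% higher. The weight was 0.0551 for DMSO replicate 1 and 0.543 to 2.67 for the other libraries. This setting is therefore close to leaving DMSO replicate 1 out and is no separate evidence. The count of rises ran from 0 to 2 with 1 library left out. DBF4 turned to 0.34 with the quality weights and ran from -0.22 to 0.30 with 1 library left out, 0.30 being the value without DMSO replicate 1. Of the other replication genes, 36 fell and 5 rose with the quality weights, beside the same 32.1% and 32% of all genes. On each TPM scale 5 fell and 1 rose, where 2.27% and 2.12% of all genes were called lower and 12.2% and 10.9% higher. With glmTreat 0 of them fell, and 3 to 32 fell and 0 to 2 rose with 1 library left out. With the GC content and length offsets 1 of them rose, also with the replicate block added (15.2% and 12% of all genes higher). The cause of these differences was not tested. Correlations of same-numbered deviations from the group mean were 0.167, -0.143 and 0.231. They cannot settle whether replicate numbers pair the samples. DMSO replicates 2 and 3 gave nearly the same values with each erianin library (0.248 and 0.231 with erianin replicate 3). With the replicate number as a block, 25 members and 16 other replication genes fell, where 10% of all genes were called lower and 9.86% higher. With both the offsets and the block, 35 members fell, where 17% of all genes were called lower and 12% higher. Fold changes of low members such as POLE2 rest on 652 to 1067 reads a library.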
